A study of Homo sapiens with 131 samples.

Results

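In each of 56 mid-S HAP1 cells, the share of the genome whose replication state broke the order shared by all cells was measured, and the 14 cells that broke it most were compared with the 14 that broke it least. The replication timing (RT) of a 40-kb bin was taken as the share of cells with 2 copies of it among the cells with a call. A cell with a given number of 2-copy bins was expected to hold them in its called bins of highest RT. Discordance was the percentage of its called bins in the other state. The 28 cells between the groups served only as a background.

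The series pairs the DNA and the RNA of single cells in separate libraries (scRR-seq), with the replicated regions read from DNA copy number. HAP1 is a human leukaemia-derived cell line that is nearly haploid, so a locus goes from 1 copy to 2 copies when it replicates. Of 63 labelled mid-S cells, 56 stand in the analysed tables, and 5 G1 cells with DNA alone were not compared. The mid-S cells carry no label of a treatment and were sorted by DNA content and, as the methods state, taken from 1 biological experiment. A cell was the unit of every test, so p-values measure only the spread between these cells, which may be technical.

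S phase runs through a programme: replication origins are licensed in G1, when the MCM helicase is loaded, and fire at different times in S phase, so that gene-rich, transcribed chromatin tends to replicate early and gene-poor chromatin late. Within a domain, neighbouring origins fire at similar times. The order is a tendency, and each cell departs from it in some domains.

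BCR, the fusion partner of ABL1 in this line, was listed above 0 in all but 3 of 56 cells and had a median TPM (a length-normalised share of a cell's transcripts) of 13.1. ABL1 was at 0 in 7 cells. Of the 10 markers of other cell types, CD3E, HBB and KRT5 were at 0 in all 56 cells. LYZ reached a TPM of 1 in 30 cells, with medians of 2.09 in the most discordant cells and 0.195 in the least. COL1A1 did so in 28 cells, with medians of 1.03 and 0, while PECAM1 never did and had medians of 0 and 0.18. The summed TPM of the 10 markers was 0 to 69.6 in the most discordant cells (median 4.87) and 0 to 18.4 in the least (median 2.25). The blood-cell marker PTPRC reached a TPM of 58.7 in 1 of the most discordant cells and was at 0 in the other 55 cells. The part of these markers in the results was not tested. Cells with label numbers up to 65 and above 65 are called the first and the second library set, a split made because their RNA was known to differ (mitochondrial share of TPM 8.94% and 3.59% in the most discordant cells of each), and not one the labels name. The most discordant cells held 8 cells of the first and 6 of the second set, and the least discordant held 7 of each.

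Discordance had a median of 14.8% of called bins over the 56 cells and ran from 12.1% to 20.2%. It ran from 16.2% to 20.2% (median 16.7%) in the most discordant cells and from 12.1% to 13.5% (median 13.01%) in the least. These values chose the cells and are given as a description. The limits fell within a continuous range. The last cell taken into the most discordant group had 16.197% and the first left out 16.188%. At the other end the values were 13.519% and 13.555%. The 6 cells of highest discordance stood above the rest of their group, at 17.9%, 18.8%, 19.01%, 19.2%, 20.0% and 20.2%. The number of called bins was alike, with medians of 56556 and 56610 of 56881.

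The percentage replication score, the share of called bins with 2 copies, moved with discordance. Its median was 49.1% in the most discordant cells (SD 6.65, n = 14, from 40.1% to 63.7%) and 59.96% in the least (SD 5.87, n = 14, from 49.6% to 67.2%). Over the 56 cells Pearson's r between discordance and score was -0.52 and Spearman's rho -0.53, with r of -0.57 in the first library set (29 cells) and -0.40 in the second (27 cells). Both measures come from the same states. The most discordant cells thus had lower scores, with overlap, and the score is given beside the results below. Discordance was also uneven over the cell numbers: the 10 cells numbered 38 to 61 had a median of 17.2%, gave 7 of the 14 most discordant cells and none of the least, and had a median score of 46.6%. The labels do not say what the numbers stand for.

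**Figure D1:**
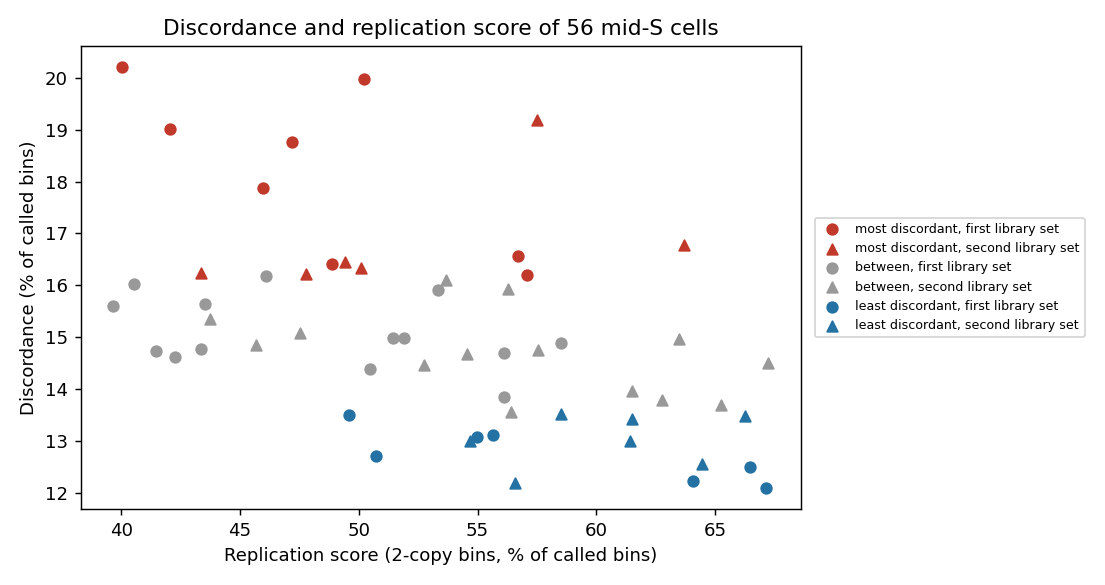
Discordance (percent of called bins, vertical axis) against the percentage replication score (horizontal axis) in 56 cells, with the 14 most discordant in red, the 14 least in blue and the 28 between in grey, and with circles for the first and triangles for the second library set. The groups overlap in score from 49.6% to 63.7%, and the least discordant cells are missing at scores under 49.6%.

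Discordance was similar on 2 separate sets of a cell's chromosomes. It was computed apart for odd-numbered and even-numbered chromosomes, and the 2 values had an r of 0.90 and a rho of 0.88 over 56 cells, as a description of points that share the library. The score, which moves with discordance, was not taken out. The 14 highest and 14 lowest cells chosen on odd chromosomes shared 11 and 12 cells with those chosen on even chromosomes. On the even chromosomes, the cells chosen on odd chromosomes ran from 15.9% to 20.3% (median 16.98%) and from 12.6% to 14.2% (median 13.2%), and did not overlap. Leaving each cell out of the RT it was compared with kept 13 of 14 cells in both groups.

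The discordant bins of the most discordant cells lay in longer runs, and a smaller share of them were single bins. Runs were also somewhat more numerous, with a median of 1204.5 (from 1030 to 1495) and 1114 (from 1026 to 1211) in the least. The authors called the states with a hidden Markov model, whose part in the length of runs was not tested. A run is a stretch of neighbouring bins that are all ahead of the programme (2-copy where 1-copy was expected) or all behind it. Its mean length was 330 kb ± 31.01 in the most discordant cells (SD, n = 14 cells, from 294 to 405 kb). In the least it was 262 kb ± 13.9 (from 241 to 286 kb), and the groups did not overlap. Mean length follows from the number of discordant bins and of runs, and the share of discordant bins chose the cells. Longer runs and fewer single bins are thus favoured by the choice, and are a description. Over the 56 cells Pearson's r between discordance and mean run length was 0.73. Single bins made up 1.67% ± 0.232 of the discordant bins in the most discordant cells and 2.54% ± 0.218 in the least. Runs of at least 400 kb held a median of 63.9% of discordant bins (from 59.6% to 74.7%) and 53.2% (from 46.8% to 59.8%). The number of changes of state along the genome was similar, with median counts of 1708 and 1716 runs of 1 state per cell. The discordant bins of the most discordant cells also lay farther from the expected limit. Bins more than 0.25 in RT from it made up a median of 4.96% of called bins (from 4.13% to 7.62%), against 2.92% (from 1.67% to 3.38%).

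Single runs showed the scale. The longest was ahead of the programme, covered 4840 kb (chr6:120200001-125040000, hg38) in cell 38, and had a mean RT of 0.23. Cells 61 and 53, also among the most discordant, had runs ahead of 3160 kb and 2840 kb inside the same stretch. The longest run behind among the most discordant cells covered 2840 kb (chr4:87640001-90480000) in cell 78, at a mean RT of 0.88. Long runs were not limited to these cells: cell 86, the cell of second-lowest discordance, held 4200 kb ahead of the programme (chr10:52400001-56600000) and cell 34, also among the least discordant, 3840 kb behind it (chr3:174920001-178760000). Runs of at least 2 Mb numbered 62 ahead and 20 behind in the most discordant cells, and 15 and 8 in the least.

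The groups stood apart most clearly in early-replicating bins. Bins with an RT over 0.9 (14698 bins) were still 1-copy in a median of 4.34% of called bins in the most discordant cells, from 1.70% to 15.4%, and in 0.89% in the least, from 0.12% to 1.69%. The ranges met but did not overlap. Bins with an RT of 0.7 to 0.9 were 1-copy in a median of 25.8% (from 12.1% to 43.5%) and 7.57% (from 2.82% to 18.4%). In the latest bins, with an RT up to 0.1, a median of 2.11% were 2-copy in the most discordant cells and 3.24% in the least. All of these values move with the score, so the comparison was repeated in the 6 most and 6 least discordant cells scored 49 to 58%, a range chosen after the scores had been seen.

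In those 12 cells the scores were alike, with medians of 53.5% and 54.8%, and both ends of the programme differed. The latest bins (RT up to 0.1) were 2-copy in a median of 3.84% (from 2.03% to 7.18%) in the most discordant cells and 1.51% (from 1.17% to 2.42%) in the least. Bins with an RT of 0.1 to 0.3 were 2-copy in 22.2% (from 14.7% to 30.5%) and 14.2% (from 10.0% to 15.8%). In bins with an RT of 0.7 to 0.9 the 2-copy share was 79.3% (from 71.2% to 86.1%) and 89.2% (from 81.6% to 91.7%). In bins with an RT over 0.9 it was 96.9% (from 93.7% to 98.3%) and 99.0% (from 98.3% to 99.2%). Late bins were thus 2-copy more often and early bins less often in the most discordant cells, a direction that the definition of discordance favours, and the ranges overlapped in each class but the earliest, where they met at 98.3%. In the middle class (RT 0.3 to 0.7) the medians were 50.5% and 52.0%.

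**Figure D2:**
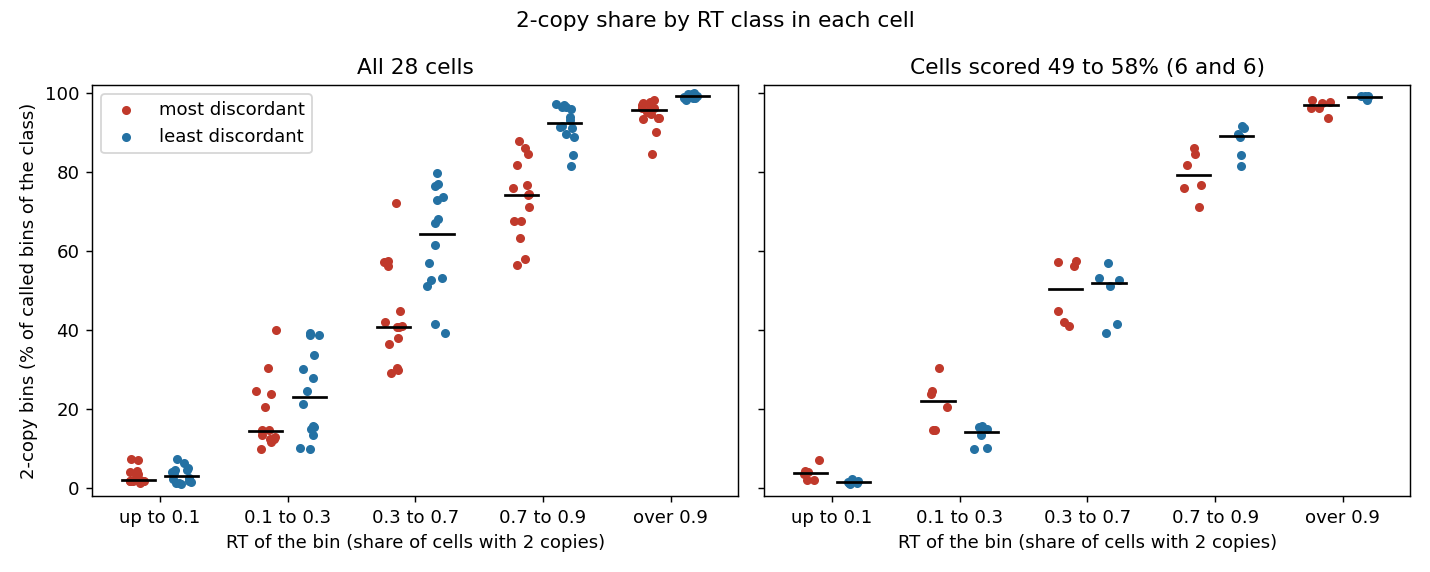
Percent of called bins with 2 copies (vertical axis) in 5 classes of bin RT (horizontal axis), with 1 point per cell (red, most discordant; blue, least) and a line at the median, for all 28 cells (left) and for the 6 and 6 cells scored 49 to 58% (right). In the left panel the blue medians lie above the red in every class, and in the right panel they lie below the red at RT up to 0.3 and above it at RT over 0.7.

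Bins with genes were compared with bins without over all bins and in the middle and the earliest RT class. Over all bins, the most discordant cells had a median discordance of 14.9% in bins with an expressed gene and 18.1% in bins without a gene, and the least 9.28% and 14.3%, but bins with an expressed gene replicate earlier (mean RT 0.77 against 0.45). Among bins with an RT of 0.3 to 0.7, the medians with an expressed gene were 38.9% and 32.5%, and without a gene 37.6% and 32.4%. Among bins with an RT over 0.9, an expressed gene went with medians of 4.30% and 1.07%, and no gene with 4.48% and 0.80%, differences of opposite sign in the 2 groups and small beside the ranges over cells (1.48% to 13.7% and 0.12% to 1.55% with an expressed gene). The tertiles of lowest and highest GC content in that class had 4.56% and 4.28% in the most discordant cells, and 0.86% and 1.011% in the least. Bins within 3 Mb of a chromosome end had 5.94% and 1.34%, and bins farther in 4.16% and 0.85%.

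The 2-copy share of some chromosomes lay above or below its expected share. The sign is favoured by the definition, since a bin can be behind only above a cell's RT limit and ahead only below it. A chromosome of mostly early bins thus tends to lie below 0, and one of mostly late bins above it. A larger size is favoured by the choice of the most discordant cells. These values are a description. The 2-copy share of chromosome 19, which is gene-rich and early-replicating, less its expected share had a mean of -6.74 percentage points in the most discordant cells (SD 4.35, n = 14, with all 14 below 0) and -2.64 in the least (SD 3.52). Over all cells this difference had a mean of -3.01 (SD 4.71). The median discordance of chromosome 19 was 13.8% in the most discordant cells and 7.05% in the least. For chromosome 16 the means were -3.23 (SD 3.63) and 0.70 (SD 3.59). Chromosome 18, which is gene-poor, lay above 0 in the most discordant cells, at 3.79 (SD 6.12), and below it in the least, at -3.51 (SD 3.60). The SDs of the groups overlapped in each chromosome. Single cells went further. Chromosome 22 was 46.97% 2-copy in cell 51 where 67.2% was expected, and chromosome 19 was 45.2% in the same cell where 61.2% was expected. In the cells scored 49 to 58% the 2-copy share of chromosome 19 ran from 60.9% to 68.8% in the most discordant cells and from 67.2% to 72.5% in the least, and that of chromosome 18 from 41.3% to 51.8% and from 37.5% to 47.5%. Both pairs of ranges overlapped.

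**Figure D3:**
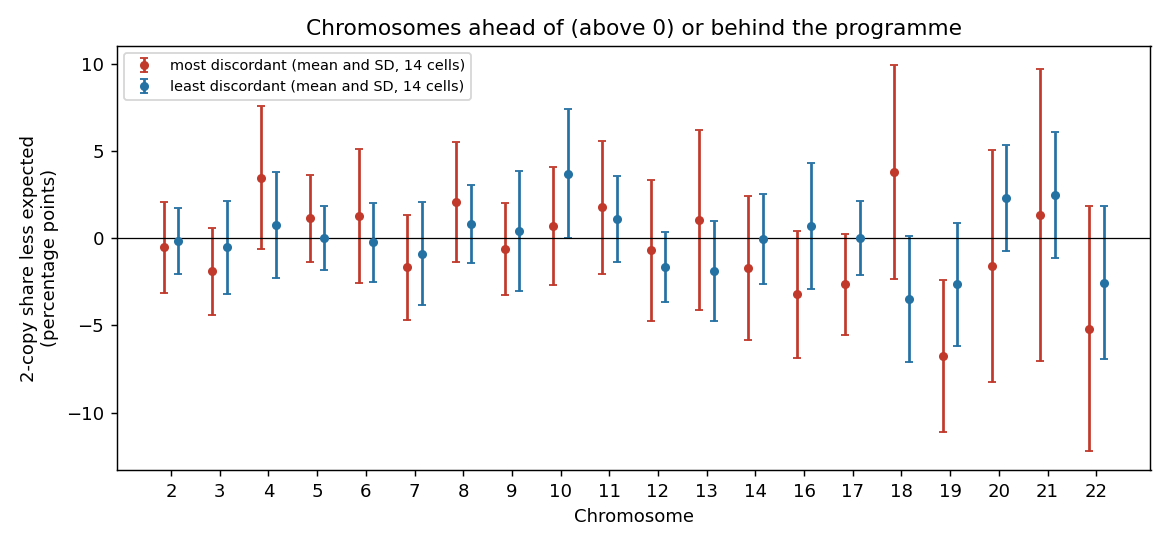
Mean 2-copy share of each chromosome less the share expected from the programme (percentage points, vertical axis; points, mean of 14 cells; bars, SD), for the most discordant cells in red and the least in blue. Chromosome 19 lies lowest in the most discordant cells, at a mean of -6.74 points, and the bars of the groups overlap in every chromosome.

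The median correlation of deviations between 2 cells was 0.15 within the most discordant cells (91 pairs), 0.10 within the least (91 pairs) and 0.05 between the groups (196 pairs), as a description of points that share the programme they were measured against. Windows of 1 Mb were ranked by how much more of their calls were behind, or ahead, in the most than in the least discordant cells, and their values are therefore a description. The first window for calls behind lay at chr20:51240001-52240000 and holds ATP9A, a phospholipid flippase gene, and ZFP64, a zinc finger gene. It was 2-copy in 36.9% of calls in the most discordant cells, where 91.7% was expected, and in 97.1% in the least. It was behind in at least 13 of its 25 bins in 9 of 14 and in 0 of 14 cells. The next windows were chr3:44680001-45680000, with the kinesin gene KIF15 and LARS2 (49.6% and 96.3% of calls), chr16:52120001-53120000, with the chromatin remodeller gene CHD9 and TOX3 (91.7% in the least discordant cells), and chr6:17320001-18320000, with the chromatin gene DEK, the nuclear pore gene NUP153 and CAP2 (56.3% and 98.9%). The 6 windows ranked for calls ahead had a mean RT of 0.32 to 0.52. A later RT is favoured by the definition, since a bin can be ahead only below a cell's RT limit. The window chr5:51280001-52280000, with the homeobox gene ISL1, was 2-copy in 65.04% of calls in the most discordant cells, where 27.2% was expected, and in 53.3% in the least, where 79.8% was expected. The window chr18:32800001-33800000, with no expressed gene, was 2-copy in 54.3% where 2.57% was expected, and in 12.9% of the least where 24.3% was expected.

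RNA was not used to choose the cells, so it was tested. The measures of a cell's whole RNA did not pass a test. Genes at a TPM of 1 or more numbered 13290 ± 747 in the most discordant cells and 13509 ± 618 in the least (SD, n = 14 each; permutation test with 100000 resamples, two-sided, p = 0.404, 0.919 adjusted over the 3 measures). Mitochondrial transcripts made up 6.65% ± 3.52 and 6.79% ± 3.94 of TPM (permutation p = 0.919, adjusted 0.919). Unspliced counts totalled 666598 ± 116122 and 672442 ± 131779 (permutation p = 0.902, adjusted 0.919). Within the first library set the mean gene numbers were 12885 and 13231, and within the second 13831 and 13788, so the sign was not shared by the sets.

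No gene passed an adjusted p of 0.05 in spliced RNA. limma on log2(TPM + 1) with the library set as a term tested 17132 genes and called 0 (0%). At an unadjusted p under 0.05, 475 genes (2.77%) were higher and 601 (3.51%) lower in the most discordant cells, and the rank-sum test also called 0, with 1021 at that unadjusted level. The genes named next did not pass. NFYC-AS1, an antisense transcript of a transcription factor gene, had the lowest adjusted p (0.145). It was at a TPM of 0 in 12 of the 14 most discordant cells, with 18.1 in the highest, and at 0 in 2 of the 14 least, which ran to 24.97 with a median of 9.43. The log2 difference was -2.61 ± 0.48 (SE). It was called when RT was taken from the other cells, at an adjusted limma p of 0.0192, and with 7 cells of each group from each library set, at 0.00134. Its log2 difference was -1.90 with the score as a further term, -1.18 with groups chosen on discordance less its fit on the score and -1.60 without cells numbered 38 to 61, with adjusted limma p of 0.810, 0.841 and 0.997. The strand setting of the counting is unknown here, so its reads and those of its partner gene cannot be told apart.

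Among the other genes with the lowest p in the lower direction, the deacetylase gene HDAC9 had a TPM of 16.9 to 289 in the most discordant cells (median 48.1) and 97.5 to 364 in the least (median 154), a log2 difference of -1.50 ± 0.35. The groups overlapped above 97.5. The HDAC9 difference was -0.28 with groups chosen on discordance less its fit on the score and -0.64 in the cells scored 49 to 58%. TCF25 had medians of 83.3 and 172 (log2 -1.08 ± 0.25), and the adhesion receptor gene ADGRV1 medians of 116 and 251 (-1.12 ± 0.27). The semaphorin receptor gene PLXNC1 had 5.05 and 25.9, the scaffold gene TANC2 12.6 and 39.8, the lipid-binding gene OSBPL10 0.42 and 17.2, and the HOXA-linked long non-coding RNA HOTTIP 0 and 17.4. SETP3, a pseudogene whose reads may come from SET, and TMEM147-AS1 completed the 10. In the other direction LRRC75A had a median TPM of 7.20 (from 0 to 16.7) in the most discordant cells and 0 (from 0 to 6.14) in the least, a log2 difference of 2.12 ± 0.43, and was called with 10 cells a group (adjusted limma p = 0.00117). The homeobox gene ALX4 had medians of 6.21 and 0, the neurexin-family gene CNTNAP2 16.8 and 0, PET117, for cytochrome oxidase assembly, 28.2 and 1.04, and PRDM16 4.72 and 0. The purine enzyme gene ADA had a log2 difference of 2.56 ± 0.66, the receptor adaptor gene FRS3 medians of 12.5 and 0, DDN-AS1 11.3 and 0, RP11-496H1.4 7.48 and 0, and EEPD1, a nuclease gene linked to stalled forks, 2.79 and 0. These 10 were mostly genes listed at 0 in many cells: 7 to 13 of the 14 least discordant cells had no TPM of them. Of the 20 genes of lowest p in spliced RNA, 9 had a log2 difference smaller by over 1.5 times with groups chosen on discordance less its fit on the score, among them TANC2 (-0.65 beside -2.22), and 3 did in the cells scored 49 to 58%. With the score as a further term 0 did, and 0 changed sign in any of these settings.

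**Figure D4:**
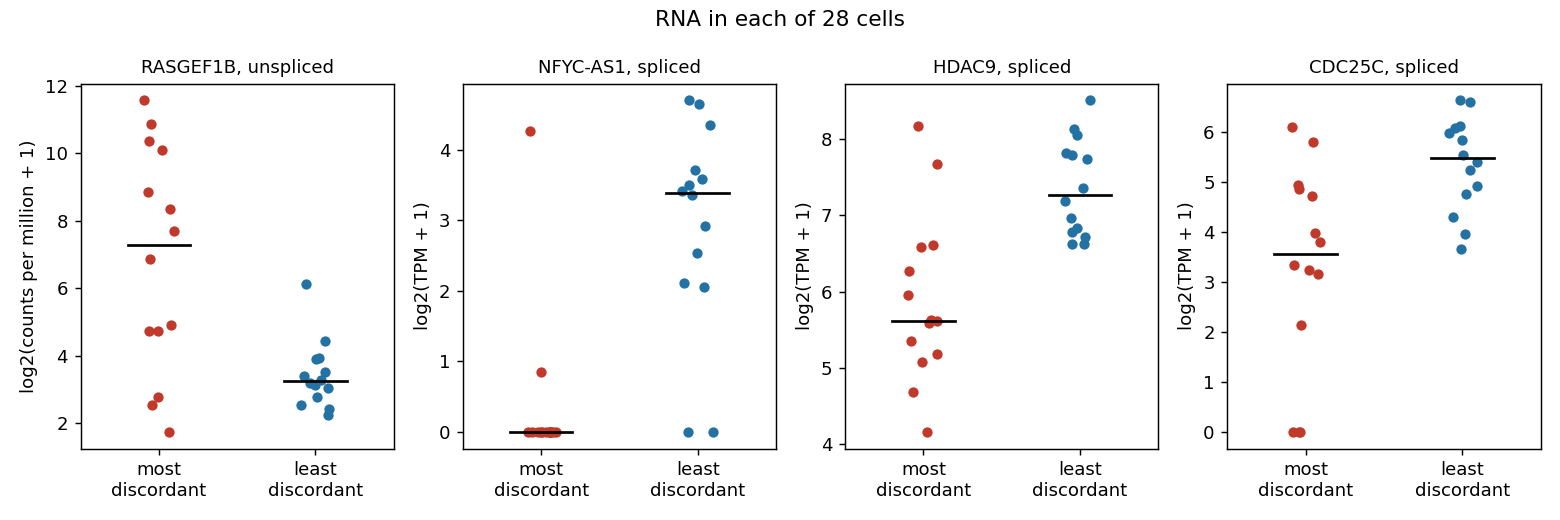
RNA of 4 genes in each of 28 cells, as log2(unspliced CPM + 1) for RASGEF1B and log2(TPM + 1) for NFYC-AS1, HDAC9 and CDC25C (vertical axes), in the most discordant cells (red) and the least (blue), with a line at the median. RASGEF1B lies above the highest blue cell in 8 red cells, and the groups overlap in all 4 genes.

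RASGEF1B, a gene for an exchange factor of Ras-family GTPases (chr4:81426393-82044244), was the 1 gene of 4233 called in unspliced RNA (0.0236%), where edgeR's quasi-likelihood test was run on counts rounded to whole numbers. In the most discordant cells its unspliced counts were 1984, 1133, 1001, 750.1, 318, 178, 155, 59.8, 25.3, 18.3, 14.2, 3.63, 3.10 and 1.60. In the least they ran from 2.23 to 33.9 with a median of 5.69. Of the most discordant cells, 8 lay above the highest of the least, and the 2 highest held 55.2% of the group's counts. The log2 difference was 5.48 ± 0.91 (adjusted p = 0.00771). With the replication score as a further term it was 5.30 and no longer passed (adjusted edgeR p = 0.186), and limma and the rank-sum test on the same genes called 0 genes, with 252 and 238 at an unadjusted p under 0.05, while DESeq2 called it with 8 others. The gene's own bins were 2-copy in 8 of the most discordant and 4 of the least discordant cells and 1-copy in the other 6 and 10, and 2 of the 5 highest cells had 1 copy. Its spliced TPM had medians of 3.40 (from 0 to 32.5) and 0 (from 0 to 16.5).

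At an unadjusted p under 0.05, 76 unspliced genes (1.8%) were higher and 67 (1.58%) lower. The other genes of lowest p did not pass. MMS22L, which acts with TONSL in the repair of forks, had median counts of 94.8 (from 0 to 1026) and 13.96 (from 0.2 to 107.3), and the tankyrase gene TNKS2 had 407 and 247. The kinase genes SIK3 (34.6 and 0) and PIK3CB (92.7 and 54.6), RGS12 (log2 difference 3.62 ± 1.15), the cadherin gene CDH12 (375 and 271), the long non-coding RNA HULC (11.95 and 7.14), AC079610.1 (37.5 and 4.67) and RP11-554D15.1 (20.98 and 11.4) completed the higher genes. In the lower direction NAV3 had medians of 5.57 and 112.4, JAZF1 2.37 and 114.2, CAP2 9.29 and 14.5, ATXN1 1.95 and 21.1, ADGRL3 11.9 and 15.98, CLUL1 20.04 and 122, AC083884.8 88.9 and 144, GS1-124K5.10 12.95 and 31.8, DENND5B 21.5 and 26.3 and the phosphodiesterase gene PDE4D 21.95 and 33.4. Their highest cells often set the fold: ADGRL3 reached 1169 counts in 1 of the least discordant cells. CDH12 and HULC changed sign with groups chosen on discordance less its fit on the score, from log2 differences of 1.39 and 2.33 to -0.12 and -0.32.

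No gene of the replication machinery was called in any list. The shares of a list that were higher or lower at an unadjusted p under 0.05 stand beside 2.77% and 3.51% of all genes. Each rests on 0 to 2 genes of a list, except for 5 lower genes in the G2/M list given below. The lists were chosen with earlier results of these data known. Of the 16 genes of origin licensing, 1 (6.25%) was higher and 0 lower in spliced RNA, with a median log2 difference of 0.15 beside -0.04 over all genes tested. That gene was MCM3, a helicase subunit, with a median TPM of 319 and 210 in the most and the least discordant cells (log2 0.54 ± 0.26, adjusted limma p = 0.790), and its log2 difference was 0.07 with the score as a further term. MCM5 had 177 and 101.5, and MCM4, the most abundant, 370 and 288. Of 18 genes of origin firing, 1 (5.56%) was higher: TOPBP1, which acts in helicase activation and the ATR checkpoint, had 115.3 and 67.8 (log2 0.82 ± 0.29, adjusted limma p = 0.653). The helicase partner CDC45 had 179 and 179, GINS1 61.8 and 76.6, and the kinase CDC7 71.1 and 49.1. Of 24 genes of RT and its chromatin, which include RIF1, 0 passed in either direction (median log2 0.09).

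Of 34 fork genes 0 were higher and 1 lower, the topoisomerase TOP2A, at 732 and 878. TOP1 had 79.6 and 66.1, and CHTF8 24.5 and 9.61. Of 38 genes of the replication checkpoint and fork protection 2 (5.26%) were higher and 1 (2.63%) lower. The nuclease subunits RAD50 (36.1 and 22.03) and EME1 (54.1 and 23.96) were the higher genes, and CDC25C, the phosphatase that activates CDK1, the lower. CDC25C had a median of 10.98 (from 0 to 67.8) in the most discordant cells and 43.6 (from 11.7 to 98.7) in the least, a log2 difference of -2.03 ± 0.59 (adjusted limma p = 0.552), which was -0.80 with groups chosen on discordance less its fit on the score and -2.82 in the cells scored 49 to 58%. FANCI, the most abundant of the list, had 194 and 213. Of 18 genes of nucleotide supply 0 passed (median log2 0.14), with RRM2B at 20.9 and 18.6 and TYMS at 452 and 581.

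The lists of stress and damage also held no called gene. Of 23 tested p53 and damage targets 1 was higher, the metabolic regulator TIGAR (8.80 and 0.17), and 1 lower, the oxidoreductase TP53I3 (1.69 and 14.1), with a median log2 of 0.04. TIGAR was called in the cells scored 49 to 58% (log2 3.68 ± 0.34, adjusted limma p = 0.00293), from 6 cells a group. Of 22 stress and immediate-early genes 0 were higher and 1 lower, EGR1 (1.48 and 6.89). Of 17 tested genes of the interferon and cytosolic DNA response 0 passed (median log2 -0.43), with IRF1 at 4.12 and 17.7, MX1 at 0.47 and 1.19 and the DNA sensor CGAS at 8.49 and 1.53. Of 32 tested replication-dependent histone genes 0 passed, and 25 lay above 0 (median log2 0.48), with H2AC18 at 22.02 and 7.25 and H4C3 at 58.2 and 52.5. Of 22 mitochondrially encoded genes 1 was higher, the tRNA gene MT-TL1 (167 and 0), and 19 lay below 0 (median log2 -0.25).

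The cell cycle lists of the Seurat package held no called gene, and their medians lay on opposite sides of 0. Of 43 S-phase genes 1 was higher, DTL, a factor of the ubiquitin ligase that degrades CDT1 (105.8 and 64.4), and 0 lower, with a median log2 of 0.14. Of 54 G2/M genes 0 were higher and 5 lower (9.26%), with a median of -0.24 and 42 below 0. They included TPX2, a spindle assembly factor (91.3 and 142), the centromeric histone gene CENPA (33.0 and 79.9), CDC25C and TOP2A. The score was lower in the most discordant cells, and its part in these values was not settled by the alternatives. With the score as a further term 1 of 54 G2/M genes was lower at that level (median -0.16), and with groups chosen on discordance less its fit on the score 1 was higher, 1 lower and the median was 0.11. In the cells scored 49 to 58%, 1 was lower and the median was -0.25, about that of all 28 cells. The S-phase median was -0.05 with the score as a further term, 0.15 with groups chosen on discordance less its fit on the score and 0.17 in the cells scored 49 to 58%. In unspliced RNA, 0 to 2 members of any list passed the unadjusted level. The 2 were the G2/M genes NDC80 (188 and 339) and ECT2 (0 and 62.5). They were lower, of 14 tested (14.3%, beside 1.58% of all unspliced genes), and the list had a median log2 of -0.28. With the score as a further term 0 of 14 were lower (median 0.03), and with groups chosen on discordance less its fit on the score 0 of 14 (median -0.04). In the cells scored 49 to 58% 0 of 11 were lower (median -0.31).

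In the ranked 1-Mb windows no gene was called in either kind of RNA. The 6 windows behind in the most discordant cells held 40 genes tested in spliced RNA. Of these, 0 were higher and 2 lower at an unadjusted p under 0.05, beside 2.77% and 3.51% of all genes. Below 0 lay 25, with a median log2 difference of -0.34, beside -0.04 over all genes. In unspliced RNA, of 16 tested genes 7 lay above and 9 below 0, with a median of -0.05. At the unadjusted level 0 of these were higher and 1 lower, beside 1.8% and 1.58% of all unspliced genes. The 2 lower in spliced RNA were TMEM42, listed at 0 in 11 and 9 cells of the groups, and CAP2, an actin regulator gene. CAP2 was 1-copy in 7 of 14 most discordant cells and 2-copy in all 14 of the least. CAP2 had a TPM of 0 to 40.3 in the most discordant cells and 5.98 to 74.8 in the least, with a log2 difference of -1.69 ± 0.61 (adjusted limma p = 0.668). Its unspliced difference was -2.12 ± 0.55, with an adjusted p of 0.940 in edgeR and 0.0205 in DESeq2. TMEM42, ATP9A and ISL1 were named after their values had been seen. Within the most discordant cells the median TPM of CAP2 was 8.63 in the 7 cells with 1 copy and 12.3 in the 7 with 2, and both ranges started at 0. ATP9A, in the window on chromosome 20, had 9.80 and 24.4 (log2 -0.97 ± 0.54, adjusted limma p = 0.814). The 6 windows ahead held only 5 genes tested in spliced RNA, 2 above and 3 below 0, with a median log2 difference of -0.05. At the unadjusted level 1 was higher, the homeobox gene ISL1 (5.88 and 0), beside 2.77% of all genes.

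Within a cell, genes ahead of the programme had more RNA, relative to other cells, than genes behind it. A gene counted when all its bins in the table were ahead or all behind in that cell, and its log2(value + 1) was set against its mean in the other cells of the library set and centred on the cell's median over genes. In spliced RNA the most discordant cells had a median of 313 genes ahead (from 198 to 504) and 786 behind (from 545 to 1199). The mean of the genes ahead exceeded that of the genes behind by 0.13 ± 0.11 on the log2 scale (SD, n = 14 cells, ratio 1.09), and was above 0 in 12 of 14 cells (exact two-sided sign-flip test, p = 0.000488, adjusted over 4 tests 0.00122). In the least discordant cells the difference was 0.11 ± 0.15 and above 0 in 11 of 14 (exact p = 0.0177, adjusted 0.0177). In unspliced RNA it was 0.18 ± 0.12 and above 0 in 13 of 14 of the most discordant cells (exact sign-flip p = 0.00061, adjusted 0.00122). In the least it was 0.19 ± 0.18 and above 0 in 12 of 14 (exact sign-flip p = 0.00159, adjusted 0.00212). Set against the cell's median over genes, the means of genes ahead and behind in spliced RNA were -0.04 and -0.17 in the most discordant cells. In the least they were -0.12 and -0.23. In unspliced RNA they were 0.26 and 0.09 in the most, and 0.26 and 0.08 in the least. Both means thus lay below that median in spliced and above it in unspliced RNA. Only their difference was tested.

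The local difference per cell was not shown to differ between the groups. A permutation test with 100000 resamples, two-sided, gave p = 0.703 in spliced and 0.843 in unspliced RNA. By library set, the spliced means were 0.12 and 0.02 for the most and the least discordant cells of the first set (8 and 7 cells), and 0.13 and 0.19 in the second (6 and 7 cells). The unspliced means were 0.18 and 0.11 in the first and 0.17 and 0.26 in the second. In the cells scored 49 to 58% they were 0.12 and 0.09 in spliced and 0.17 and 0.17 in unspliced RNA. The pseudocount of 1 makes the change of low genes smaller.

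**Figure D5:**
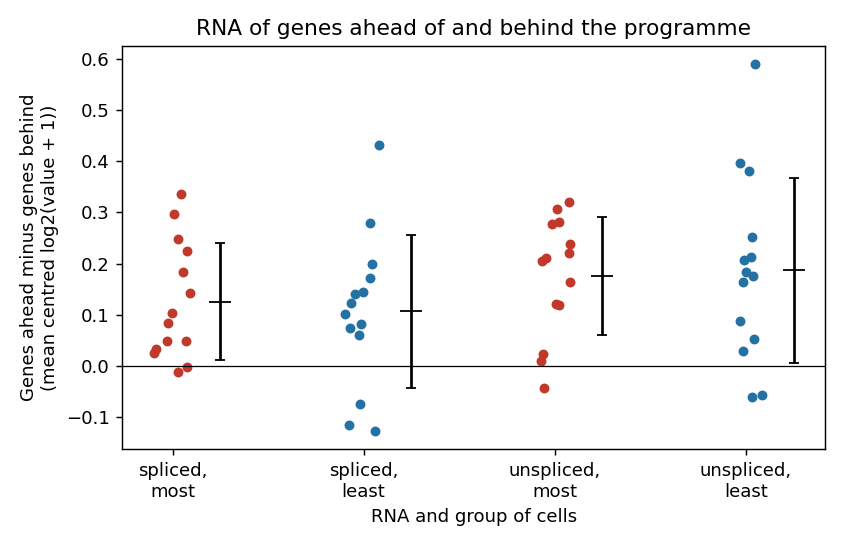
Mean centred log2(value + 1) of the genes ahead of the programme less that of the genes behind it (vertical axis), with 1 point per cell for spliced and unspliced RNA in the 14 most (red) and 14 least (blue) discordant cells, and the mean with its SD in black. The means are 0.13, 0.11, 0.18 and 0.19 from left to right, and most cells lie above 0 in each column.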

How the data were processed

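DNA and RNA libraries with 1 cell number were taken as 1 cell. DNA reads were mapped by the authors to hg38 (BWA 0.7.17-r1188 is named in notes of the submitters), corrected with G1 cells and called in bins of 40 kb with AneuFinder. The deposited state is a score of 1 (2-copy), -1 (1-copy) or 0 (no call), on 20 chromosomes. The authors left out chromosomes 1, 15 and X. DNA read depth per cell was not analysed here. The authors counted RNA with ramdaq. The deposited TPM sum to 999999 to 1000001 per cell, and the deposited spliced table equals the gene TPM for all 45404 genes with a copy state. The deposited unspliced values are estimated counts (gene-body less exon reads, totals 425181 to 1353931 per cell), and were rounded to whole numbers for count models. The RNA was taken from the supernatant of each lysed cell.

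RT, expected states and discordance were computed over all called bins, with ties of RT in file order. They chose the cells, so DNA values carry no test. Spliced genes that reached a TPM of 1 in 20% of the cells or more were tested with limma 3.58.1 on log2(TPM + 1), so folds of low genes are understated. Unspliced genes kept by filterByExpr were tested with edgeR 4.0.16 (quasi-likelihood, TMM). Both used the library set as a term and Benjamini-Hochberg adjustment over all genes tested. DESeq2 1.42.0, rank-sum tests, other groupings and a score term were alternatives, and fits were tested on simulated data. Local RNA used genes above 0 in over 50% of cells.

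Named were up to 12 genes of largest change past the threshold in each direction, filled to 10 by lowest p where fewer than 10 passed, and per list the 3 of lowest p and the most abundant, from which a part is printed. Members and lists were chosen with earlier results of these data known. Estimated counts and TPM of overlapping genes and near-identical copies are uncertain.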

Additional observations from a re-analysis of the deposited data

How the results depend on the processing

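Spliced RNA gave 0 called genes in the main comparison, 2 with 10 cells a group (LRRC75A and AKTIP), 1 each with RT from the other cells and with 7 cells of each group from each library set (NFYC-AS1 in both), and 1 each in the first (DDN-AS1) and the second library set alone (CD200), and, as alternatives chosen after seeing the data, 3 in the cells scored 49 to 58% (TIGAR, RP11-20I23.11 and CTD-3126B10.4) and 2 without cells numbered 38 to 61 (CD200 and EEPD1). Its other alternatives gave 0. AKTIP, CD200 and the genes other than TIGAR in that range of scores lay outside the rule for named genes and were chosen after their values were seen. Unspliced RNA gave 1 called gene in the main comparison, RASGEF1B. It gave 0 with 10 cells a group, 7 of each set, the score as a term, either library set alone, limma and the rank-sum test, and, chosen after seeing the data, with discordance less its fit on the score and in the cells scored 49 to 58%. It gave 2 without the filter on low counts (RASGEF1B and PLAAT1), 2 with discordance as a number over all cells (NRG1 and CTNNA2), 2 with the score added to that fit, also chosen after seeing the data (NRG1 and MIR2052HG), and 9 with DESeq2, which included RASGEF1B and CAP2. Its other alternatives called RASGEF1B alone. Where edgeR tested RASGEF1B in 2 groups and did not call it, its log2 difference was 5.30 with the score term, 3.97 on discordance less its fit on the score, 5.67 in the second set and 5.44 in the cells scored 49 to 58%, beside 5.48 in all 28 cells. It did not pass the filter with 10 cells a group, with 7 of each set or in the first set, where 1141 genes were tested, so those counts of 0 say nothing of it. Groups of fewer cells have fewer samples; otherwise the cause was not tested.

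The local difference kept its direction under each of its 5 alternatives. In spliced RNA of the least discordant cells it no longer passed with genes above 0 in over 80% of cells (0.09135, exact sign-flip p = 0.125). The mitochondrial share, not past the threshold in any setting, was 0.112 percentage points higher in the most discordant cells with 10 cells a group and 0.646 with RT from the other cells, where the total of unspliced counts was 3671.8 higher. The discordance gap between the group medians was 3.66 percentage points, and 3.18 to 3.84 under its alternatives, of which the group on discordance less its fit on the score shared 10 of the most and 8 of the least discordant cells. Of the 20 spliced genes of lowest p, 0 changed sign in any alternative, and of the 20 unspliced genes 2 did. The change of the most-less-least difference from one library set to the other, tested as an interaction, was called for 0 genes by limma (810 at an unadjusted p under 0.05) and 0 by edgeR (139). No paired analysis was possible because the most and the least discordant cells share no cell numbers, a limit for the comparison of these groups alone. DNA and RNA groups share cell numbers, and the local difference joined the DNA states and the RNA of each cell. Its sign-flip test was therefore made within cells.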
